A study of Mus musculus with 20 samples.

Results

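Levels of Doc2b and 6 related RNAs for calcium-binding proteins of vesicle release (Doc2a, Rph3a, Syt1, Syt2, Syt3 and Syt7) were examined in the hippocampus of adult mice whose dams had inhaled polluted or filtered air during pregnancy. The 7 genes were taken by symbol from the 48709 genes of the count table, and all 7 were among the 19797 genes that passed the filter on low counts. Doc2b was chosen by its measured rise in nPM males over control males, so these values are given as a description without a test, as are its other comparisons that use those males. The other 6 genes encode related proteins, and no measured value of theirs entered the rule.

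The study sequenced 20 hippocampal samples from males and females, 5 per sex after nPM and 5 per sex as controls. The labels name the strain as C57BL/6 and the methods as C57BL/6J. The dams of the nPM groups inhaled nPM, a nano-sized particulate matter of urban air, on repeated days through gestation, while control dams breathed filtered air, and the labels give the nPM dose as 300 mg/m3 where the study's methods give it in μg. Age at collection was 18.57 to 19.14 weeks in the 10 males and 17.71 to 18.29 weeks in the 10 females, so sex and age cannot be told apart. The offspring came from several litters per exposure, but the labels tie no sample to a litter, so p-values measure the spread between these samples, some of which may be littermates. The methods state in separate places that male mice and that all animals received EdU, a label of dividing cells, before collection. The tissue was whole hippocampus of 1 hemisphere, and a lower level in such bulk RNA can mean fewer cells or less RNA per cell, which cannot be told apart.

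Calcium entering a nerve ending makes synaptic vesicles fuse with the membrane and release transmitter. Proteins with paired C2 domains sense this calcium and act on the SNARE proteins that drive fusion. Synaptotagmins sit in the vesicle or cell membrane, whereas the Doc2 proteins and rabphilin (Rph3a) are soluble and are recruited to membranes. The fast, low-affinity sensors trigger release locked to the action potential, and the slower, high-affinity sensors are known for delayed and spontaneous release and for short-term plasticity.

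The genes lie on 6 chromosomes of mm10. Doc2b (ENSMUSG00000020848.7) is at chr11:75768966-75796049 on the minus strand and Doc2a (ENSMUSG00000052301.14) at chr7:126847416-126852705 on the plus strand. Rph3a (ENSMUSG00000029608.10) is at chr5:120940499-121010092 on the minus strand. Syt1 (ENSMUSG00000035864.14) is at chr10:108497650-109010982, minus, and Syt2 (ENSMUSG00000026452.15) at chr1:134646677-134762593, plus. Syt3 (ENSMUSG00000030731.13) is at chr7:44384102-44400187 and Syt7 (ENSMUSG00000024743.14) at chr19:10389090-10453181, both on the plus strand.

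The closest pairs by coding sequence were Syt1 with Syt2, identical at 76.0% of 1235 aligned bases, and Doc2a with Doc2b, identical at 73.1% of 1136. Doc2b shared 70.1% with Rph3a and 57.4% to 59.0% with the 4 synaptotagmins. The most similar stretch of 90 coding bases of each close pair is shown, since reads from such stretches would be the likeliest to be counted on the wrong gene. Capitals mark the bases that differ within a pair. The Doc2a stretch is in exon 8 (chr7:126851349-126851438) and that of Doc2b in exon 6 (chr11:75777008-75777097), and they agree at 76 of 90 bases. The Syt1 stretch is in exon 11 (chr10:108504424-108504513) and that of Syt2 in exon 8 (chr1:134746771-134746860), and they agree at 78 of 90 bases. All are coding and are written 5′ to 3′ on the strand of the gene, as read from mm10.
Doc2a: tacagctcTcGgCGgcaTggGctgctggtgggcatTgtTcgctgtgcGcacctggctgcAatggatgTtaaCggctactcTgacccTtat
Doc2b: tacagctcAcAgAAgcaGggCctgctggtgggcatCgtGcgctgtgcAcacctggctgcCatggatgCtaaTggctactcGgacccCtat
Syt1: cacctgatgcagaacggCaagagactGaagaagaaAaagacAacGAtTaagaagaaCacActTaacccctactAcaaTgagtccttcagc
Syt2: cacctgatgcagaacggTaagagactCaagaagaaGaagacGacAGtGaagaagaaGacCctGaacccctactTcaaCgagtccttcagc
No stretch of 50 bases was shared between the transcripts of any 2 of the 7 genes. The longest identical run between the coding sequences was 14 bases for Doc2a and Doc2b and 26 for Syt1 and Syt2.

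Levels between genes were compared as RPKM, reads scaled to exon length and library size. Syt1, the fast sensor of forebrain synapses, had the highest level, with a median of 161 RPKM over the 20 samples. Rph3a, an effector of the vesicle GTPases Rab3 and Rab27, followed at 35.6 RPKM. Syt7, a high-affinity sensor known for asynchronous release and facilitation, stood at 29.1 RPKM. These 3 genes and Syt3 kept the order Syt1, Rph3a, Syt7, Syt3 in 20 of 20 samples. Below them, Syt3 had a median of 11.9 RPKM, Doc2b 10.8, Syt2 5.68 and Doc2a 4.01. Syt3, a high-affinity synaptotagmin also linked to receptor endocytosis, was above Doc2b in 12 of 20 samples, so these neighbours overlapped. That order split by group: Syt3 was above Doc2b in 5 of 5 control males and 4 of 5 nPM males, but in 1 of 5 control females and 2 of 5 nPM females. Doc2b was above Syt2 in 19 of 20 samples, and Syt2 above Doc2a in 16 of 20.

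**Figure D1:**
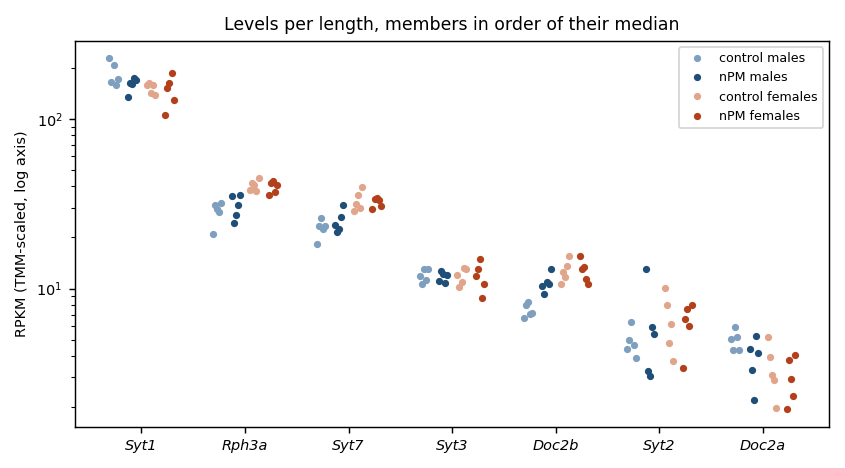
RPKM of the 7 genes on a log axis, ordered by their median over the 20 samples, with 1 point per sample and a colour per group. Syt1 lies above all others, Doc2b overlaps Syt3, and Doc2a has the lowest median at 4.01 RPKM.

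Within a gene, samples were compared as CPM, counts scaled to the library size and TMM factors. The level of Doc2b in control males was 29.2, 35.1, 36.2, 30.8 and 31.2 CPM. In nPM males it was 45.4, 40.4, 47.5, 46.4 and 56.8 CPM. The 2 male groups did not overlap, and all 5 nPM males were above the highest control male. Control females had 46.2, 54.9, 50.8, 59.3 and 67.8 CPM of Doc2b. The nPM females had 67.9, 57.0, 58.6, 49.9 and 46.4 CPM. The female groups covered almost the same range, and control males were below every sample of the other 3 groups. Males averaged 32.5 ± 3.01 CPM (SD, n = 5) as controls and 47.3 ± 5.97 after nPM, and females averaged 55.8 ± 8.29 as controls and 56.0 ± 8.38 after nPM. Doc2b counts were between 782 and 2131 per sample, so counting error was small beside these spreads.

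In males the log2 fold change of Doc2b after nPM was 0.54 (SE 0.0944), a fold of 1.45, in the contrast that chose the gene. Among all genes, 0.207% had p under 0.005 in this contrast and 0.662% had male groups that did not overlap. Both shares are below those met on average when no gene changes. A log2 fold change at least as large in size was found in 6.45% of genes. By limma-voom 0 of all genes had adjusted p under 0.05 for nPM in males (smallest 0.963) or in females (smallest 0.603). In females, whose samples played no part in the choice, the log2 fold change of Doc2b was 0.02 (SE 0.125, 95% interval -0.25 to 0.30), with adjusted p = 0.9999 by limma-voom. An exact permutation test of the 5 against 5 females gave p = 0.976. The male effect minus the female effect was 0.53 (SE 0.161) on the log2 scale, given without a test because it uses the same males. The fit of both sexes gave 0.27 (SE 0.0970), likewise without a test.

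Marker genes of cell types and of neighbouring regions were read in the same male samples. Of 88 such genes, 0 passed p under 0.005 by limma-voom, edgeR or DESeq2 for nPM in males. By limma-voom 10 of the 88 had p under 0.05, a larger share than the 4.28% of all genes. It was 9 by edgeR and 12 by DESeq2, for which the share of all genes was not computed. All 7 neocortex markers had lower values in nPM males, with log2 fold changes of -0.87 to -0.0045 (median -0.31), and their sums were 299.9 to 399 CPM in control males and 241 to 372 in nPM males. All 6 oligodendrocyte markers had higher values, with log2 fold changes of 0.17 to 0.23, and their sums were 2337 to 4749 CPM in control males and 3608 to 5455 in nPM males. All 6 choroid plexus markers had lower values, with a median of -0.37, and their sums were 31.7 to 7296 CPM in control males and 61.9 to 5540 in nPM males. All 5 meningeal fibroblast markers also had lower values, with log2 fold changes of -0.61 to -0.069. Markers of CA1, CA2, dentate granule cells and thalamus went both ways, with medians of 0.29, 0.25, 0.21 and 0.26. The medians of the remaining lists lay between -0.055 (astrocytes) and 0.072 (CA3). The sums overlapped between the male groups for each list. The part of any of these cell types or regions in the Doc2b difference was not tested.

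**Figure D2:**
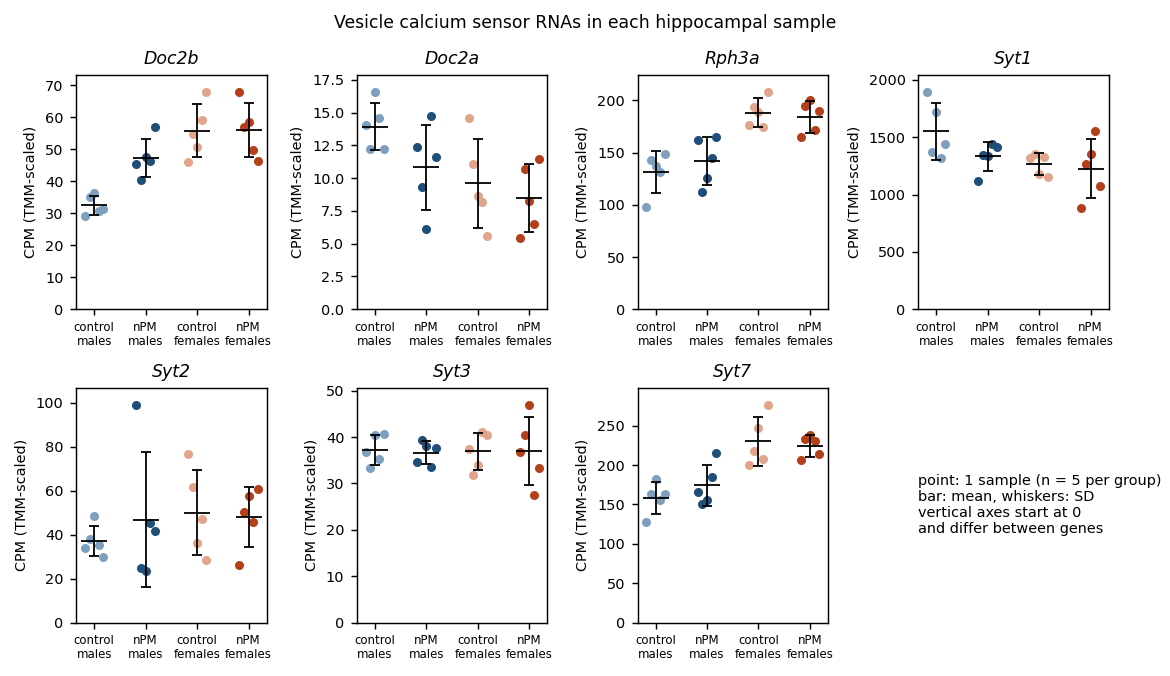
CPM of each gene in each sample by group, with the mean as a bar and the SD as whiskers (n = 5 per group) and each vertical axis starting at 0. Control males have the lowest Doc2b, between 29.2 and 36.2 CPM, and Rph3a and Syt7 are higher in females than in males.

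Doc2a, the nearest relative of Doc2b and a soluble sensor known for spontaneous and asynchronous release, had a lower RPKM than Doc2b in every sample. However, 39.4% of its exon bases are shared with a gene on the opposite strand, and the strand setting of the counting was not given. The RPKM of Doc2a, its rank and its ratio to Doc2b are thus uncertain. Doc2a had 14.1, 12.2, 16.6, 14.6 and 12.3 CPM in control males. In nPM males it had 12.4, 9.29, 6.16, 14.7 and 11.6 CPM. The groups overlapped, and the nPM male 3 was the lowest male. Control females had 14.6, 11.04, 8.67, 8.15 and 5.56 CPM, and nPM females 5.46, 10.7, 8.26, 6.52 and 11.4. The log2 fold change after nPM was -0.40 (SE 0.197) in males, with adjusted p = 0.963 by limma-voom, and -0.16 (SE 0.258) in females, with adjusted p = 0.9999. Neither passed, and the exact permutation p was 0.111 for males and 0.595 for females.

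The RPKM ratio of Doc2b to Doc2a was 1.33 to 1.85 in control males (median 1.40) and 2.03 to 4.96 in nPM males (median 2.80). These male ratios hold the contrast that chose Doc2b and are a description. In control females the ratio was 2.03 to 7.84 (median 3.77), and in nPM females 2.61 to 8.01 (median 4.56). The female groups overlapped, with a difference of 0.17 in mean log2 ratio and an exact permutation p of 0.690.

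Rph3a binds Rab3 and Rab27 on vesicles and also holds NMDA receptors at the synapse. Control males had 97.7, 143, 137, 131 and 148 CPM, and nPM males 162, 112, 126, 145 and 165. Control females had 176, 194, 189, 175 and 208 CPM, and nPM females 165, 195, 200, 172 and 189. The exposure groups overlapped in both sexes, whereas control females did not overlap with control males. Its log2 fold change after nPM was 0.11 (SE 0.132, exact permutation p = 0.484) in males and -0.02 (SE 0.0781, exact permutation p = 0.659) in females.

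Syt7 had 127, 163, 182, 156 and 163 CPM in control males and 165, 150, 156, 185 and 215 in nPM males. Control females had 200, 218, 247, 208 and 276 CPM, and nPM females 206, 234, 238, 231 and 214. As with Rph3a, the exposure groups overlapped and the 2 control groups did not. Its log2 fold change after nPM was 0.13 (SE 0.113, exact permutation p = 0.341) in males and -0.01 (SE 0.0939, exact permutation p = 0.786) in females.

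Syt1 had 1894, 1372, 1723, 1321 and 1440 CPM in control males and 1121, 1348, 1335, 1444 and 1418 in nPM males. Control females had 1318, 1355, 1177, 1324 and 1152 CPM, and nPM females 879, 1265, 1356, 1556 and 1076. All groups overlapped, and the control males 1 and 3 had the highest levels. The log2 fold change after nPM was -0.21 (SE 0.107) in males, with an exact permutation p of 0.159, and -0.05 (SE 0.134) in females, with 0.706.

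Syt2, the fast sensor of many inhibitory and hindbrain synapses, was the most variable of the genes. Control males had 33.7, 38.1, 48.3, 35.4 and 29.9 CPM, and nPM males 99.0, 25.02, 23.5, 45.3 and 41.5. The nPM male 1 stood far above the other 19 samples, of which the highest had 76.8 CPM. That sample also had the highest sum of 7 interneuron markers in its group, 809 CPM against a group median of 676, and the part of these cells in its Syt2 level was not tested. Control females had 76.8, 61.5, 36.3, 47.2 and 28.5 CPM, and nPM females 26.0, 50.2, 57.6, 45.8 and 60.9. The within-group SD of Syt2 was 0.58 on the log2 scale, above 98.5% of the 4744 genes of similar level, while that of Doc2b was 0.19, above 69.5% of its 4672. The log2 fold change of Syt2 after nPM was 0.16 (SE 0.330, exact permutation p = 0.778) in males and became -0.18 without the nPM male 1.

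Syt3 was the steadiest across groups. It had 36.8, 33.4, 40.4, 35.2 and 40.6 CPM in control males and 34.5, 39.3, 38.0, 33.4 and 37.6 in nPM males. Control females had 37.4, 31.8, 34.1, 41.0 and 40.5 CPM, and nPM females 36.8, 40.4, 46.9, 27.5 and 33.2. All 4 groups overlapped. Its log2 fold change after nPM was -0.03 (95% interval -0.19 to 0.14) in males and 0.01 (-0.27 to 0.29) in females.

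Thus 0 of the 6 genes other than Doc2b passed the study's threshold, p under 0.005 by limma-voom, for nPM in males, and 0 of 7 in females, where the background was 0.0909% of all genes. None of them had p under 0.05 in either sex by limma-voom, by the edgeR quasi-likelihood test or by DESeq2, against 4.28% of all genes in males and 1.99% in females by limma-voom. Their adjusted p by limma-voom was 0.963 to 0.975 in males and 0.9999 in females. In the fit of both sexes (background 0.141%) and for the interaction (background 0.217%), 0 of the 6 passed either, at p under 0.005 or under 0.05 and by any of the 3 tools. No female groups were separated for any of the 7 genes, against 0.349% of all genes.

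**Figure D3:**
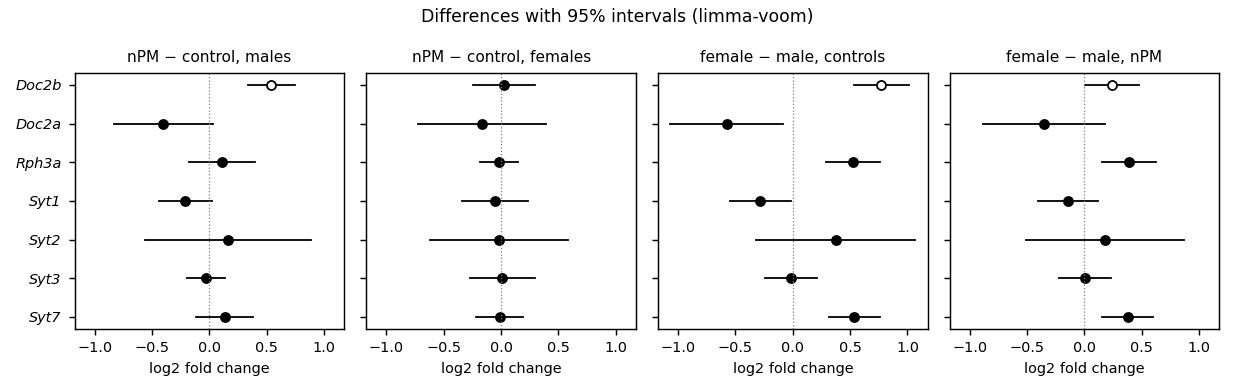
Log2 fold changes of the 7 genes with 95% intervals from limma-voom for nPM against control in males and in females, and for females against males in controls and after nPM. Open points mark Doc2b where its choice used the same samples, and Rph3a and Syt7 lie above 0 in both sex comparisons.

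The sex comparison asks how the genes stood in females against males. Rph3a and Syt7 were higher in females in both exposure groups, and the other tested genes did not pass. In controls the female minus male log2 difference was 0.53 for Rph3a (SE 0.112, adjusted p = 0.00190) and 0.54 for Syt7 (SE 0.107, adjusted p = 0.00121) by limma-voom. After nPM it was 0.39 for Rph3a (SE 0.112, adjusted p = 0.0272) and 0.38 for Syt7 (SE 0.106, adjusted p = 0.0239). These were 2 of the 6 tested genes in each comparison, where 22.6% of all genes passed p under 0.005 in controls and 12.3% after nPM. All genes that passed and were higher in females made up 13.6% and 6.84%. Exact permutation tests of single genes gave p = 0.00794 for each in controls, the smallest that 5 against 5 allows, and p = 0.0159 and 0.0238 after nPM, with adjusted p of 0.0992 to 0.119 over 25 such tests. Of the 6 tested genes, Rph3a and Syt7 had control females and control males that did not overlap, against 19.8% of all genes. After nPM the sexes overlapped for all 6, against 11.2% of all genes that did not overlap.

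Doc2a and Syt1 had lower values in control females. The log2 difference was -0.58 for Doc2a (SE 0.236, adjusted p = 0.0711 by limma-voom) and -0.28 for Syt1 (SE 0.127, adjusted p = 0.0984), so neither passed. Syt2 differed by 0.38 (SE 0.332, adjusted p = 0.414 by limma-voom) and Syt3 by -0.02 (SE 0.108, adjusted p = 0.930). Doc2b differed by 0.77 (SE 0.115) in controls and by 0.24 (SE 0.112) after nPM, without a test since the male groups chose it.

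Several measures of the RNA moved with sex. The share of counts on genes of the Gencode class TEC, largely single-exon transcript models that await experimental evidence, was 0.254% to 0.460% in males and 0.458% to 0.853% in females. Cytosolic ribosomal protein genes took 0.811% to 1.03% of counts in males and 0.589% to 0.824% in females. Endothelial marker sums were 121 to 144 CPM in males and 156 to 223 in females. Their part in the sex differences was not tested. The TEC shares of the sexes hardly overlapped, so a fit with that share as a covariate can hardly tell it apart from sex. With the TEC share as a covariate, chosen after seeing the data, the sex differences of Rph3a and Syt7 no longer passed: 0.44 (adjusted p = 0.140 by limma-voom) and 0.33 (adjusted p = 0.201) in controls, and 0.33 (adjusted p = 0.254) and 0.23 (adjusted p = 0.356) after nPM. With age as a covariate the difference in controls was 0.30 for Rph3a (adjusted p = 0.914 by limma-voom) and -0.01 for Syt7 (adjusted p = 0.998), but age hardly varied within a sex. After nPM it was 0.17 for Rph3a and -0.14 for Syt7 with age as a covariate (adjusted p = 0.986 for each by limma-voom), so neither passed. After nPM the call of Rph3a also ended without nPM female 2, 3 or 5 or nPM male 2 or 3, with differences of 0.31 to 0.38 and adjusted p up to 0.0854 by limma-voom. That of Syt7 ended without nPM female 2 or 3 or nPM male 1, 2 or 3, with differences of 0.33 to 0.36 and adjusted p up to 0.0731. The log2 fold change of Doc2b in males was 0.49 with the TEC share as a covariate, a description since these males chose the gene.

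**Figure D4:**
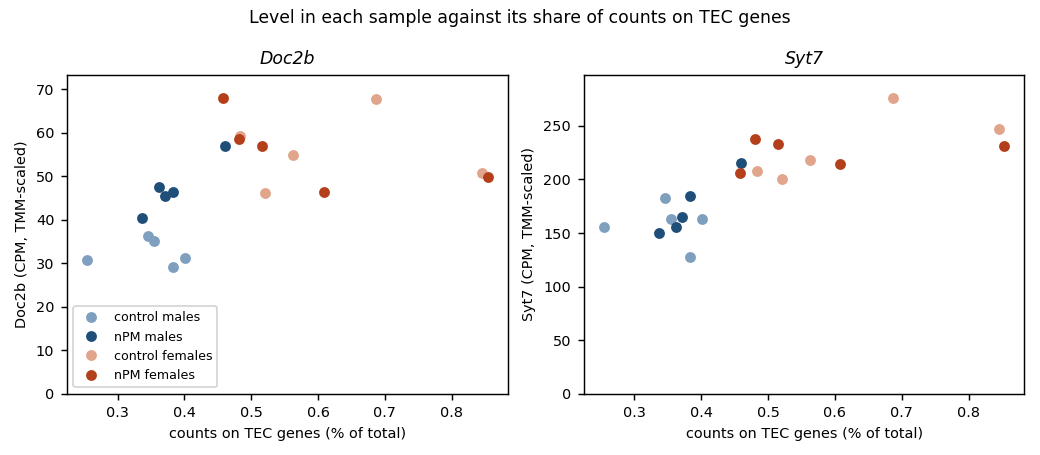
CPM of Doc2b and of Syt7 in each sample against the percent of its counts on TEC genes, with colours for the 4 groups. Females reach 0.853% and males stay at or below 0.460%. Shares were 0.254% to 0.401% in control males and 0.336% to 0.460% in nPM males, and the part of the share in the Doc2b level was not tested.

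Genes annotated at the same places were read as well, since the strand setting of the counting was not given in the sources used here. At Doc2b the antisense transcript Gm12339 (chr11:75794768-75825241) overlapped 241 of the 4361 exon bases of Doc2b in the Gencode M21 annotation of mm10. Gm12339 had 0 to 10 counts in control males, 3 to 23 in nPM males, 30 to 41 in control females and 20 to 53 in nPM females. The lowest Doc2b count was 782. The part of the shared bases in the Doc2b counts was not tested. Gm12339 was higher in control females than in control males by 2.89 on the log2 scale (SE 0.566, adjusted p = 0.00109 by limma-voom). Its difference after nPM in males was 0.94 (SE 0.773, adjusted p = 0.963 by limma-voom).

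At Doc2a, 39.4% of exon bases were shared with Ino80e, a chromatin remodelling subunit on the opposite strand, so Doc2a counts are the least certain of the 7. Ino80e had 14.7 to 17.3 CPM in males and 16.2 to 19.5 in females and did not pass in either exposure contrast (adjusted p = 0.964 in males and 0.9999 in females by limma-voom). At Syt7 the antisense Gm26859 shared 384 of 7487 exon bases. It had 0 to 6 counts in 19 samples and 40 in the nPM female 4.

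TEC models inside introns lay on the same strand as Rph3a and Syt3 and shared no exon base with them. Gm42656, inside Rph3a, had 12 to 76 counts in control males and 74 to 167 in control females, a log2 difference of 2.09 (SE 0.350, adjusted p = 0.000434 by limma-voom). Gm45124, inside Syt3, had 11 to 40 counts in control males and 46 to 118 in control females, a log2 difference of 1.67 (SE 0.312, adjusted p = 0.000837). The intronic model thus was higher in females at both genes, while the exonic counts were higher at Rph3a and not detectably different at Syt3.

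**Figure D5:**
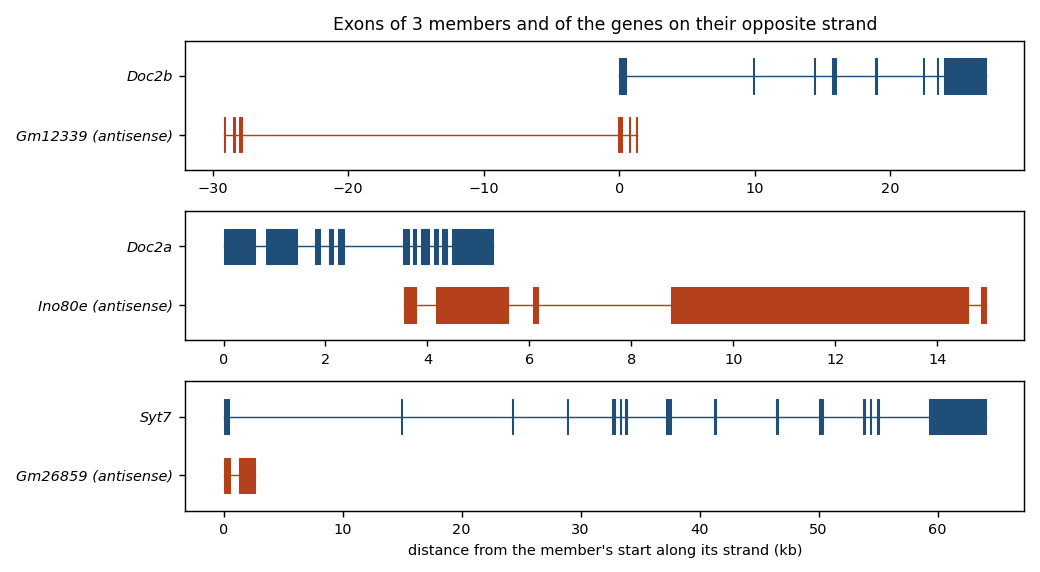
Exons (boxes) of Doc2b, Doc2a and Syt7 and of the gene on the opposite strand of each, by distance in kb from the start of the member along its strand. The overlap is at the first exon of Doc2b and Syt7, and at the last part of Doc2a, where 39.4% of its exon bases are shared.

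Of the other 6 genes, Syt7 followed Doc2b most closely between samples of 1 group. With group means removed, Pearson's r of log2 CPM over the 20 samples was 0.57 (permutation p = 0.0119, adjusted p = 0.0715 over 6 pairs) and Spearman's rho was 0.52 (permutation p = 0.0282, adjusted p = 0.169). It was 0.45 without the 2 samples farthest from the median of Syt7. For Rph3a r was 0.40 (permutation p = 0.0689) and for Syt3 0.37 (p = 0.193), while it was -0.43 for Doc2a (p = 0.106), -0.28 for Syt2 and -0.24 for Syt1. No pair passed after adjustment.

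Among 15946 genes with a mean of at least 1 CPM, those whose log2 CPM followed Doc2b most closely over the 20 samples were Sipa1l3 (r = 0.92), Gse1, Zcchc14, Parp1 and Camta2 (each r = 0.90). With group means removed they were Zcchc14 (r = 0.82), Sipa1l3 (0.81), Lats2, Camta2 and Abl2 (each 0.80). Zcchc14, Sipa1l3 and Camta2 were in both lists. Syt7 ranked 161 in the first order and Rph3a 565, and with group means removed they ranked 344 and 1433. These values describe the same libraries, which share their depth and quality. The first order also holds the group means, and with them the males that chose Doc2b and the difference between the sexes. Its r values are a description.

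The other genes of the release machinery were taken as 5 lists of 82 tested genes. In males 0 of 82 passed p under 0.005 for nPM by limma-voom, edgeR or DESeq2, against 0.207% of all genes, and 2 had p under 0.05 by limma-voom, against 4.28% of all genes, named after their values were seen: Stx1a, a SNARE of the cell membrane (-0.51, adjusted p = 0.963), and Rab3b, a vesicle GTPase (-0.36, adjusted p = 0.963). In females 0 of 82 passed by these 3 tools, against 0.0909% of all genes by limma-voom, and 3 had p under 0.05 by limma-voom, against 1.99%. The median log2 fold change in males was -0.12 for 19 other synaptotagmins and tandem C2 proteins, -0.03 for 26 SNARE and priming factors, -0.04 for 13 genes of the Rab3 and Rab27 cycle, -0.08 for 14 vesicle membrane genes and 0.07 for 10 presynaptic calcium channel genes. The median of all genes was -0.00132.

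Between control females and control males 14 of the 82 passed p under 0.005, a smaller share than the 22.6% of all genes. The genes named next had adjusted p up to 0.0218 by limma-voom. Sex and age cannot be told apart here either, and far fewer of all genes passed with age or the TEC share as a covariate. Among calcium channels, Cacna1a and Cacna1b, the pores that feed most release, were higher in females by 0.97 and 0.63 (SE 0.137 and 0.0999). Among vesicle membrane genes Syn3 and Syn1, which tether vesicles, were higher by 0.94 and 0.54, and Sypl was lower at -0.31. Of the SNARE and priming factors, Unc13a, which primes vesicles, was higher by 0.55 and the SNARE Vamp2 by 0.40, and Napg was lower at -0.27. Syt4, a synaptotagmin that does not sense calcium in the usual way, was lower at -0.52, and Sytl2 at -0.50, while Syt14 was higher by 0.30. Madd, an activator of Rab3, was higher by 0.36. After nPM 8 of the 82 passed, against 12.3%.

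The tissue label was checked by markers: sums of CA1 markers were 288 to 525 CPM and of dentate granule cell markers 130 to 460 CPM in the 20 samples. Choroid plexus marker sums ranged from 31.7 to 8205 CPM, over 1000 in 7 libraries spread over 3 groups. These were control males 2, 4 and 5, nPM males 2 and 3, and nPM females 1 and 5. The only control males outside them were 1 and 3, so fits without the 7 libraries rest on few males. Without those 7, a choice made after seeing the data, Doc2b had a log2 fold change of 0.60 in males and 0.01 in females, and Rph3a had 0.44 in males (adjusted p = 0.693 by limma-voom). Syt1 then passed p under 0.005 by limma-voom for the interaction (-0.60, adjusted p = 0.626) and for sex in controls (-0.54, adjusted p = 0.0210). Both Syt1 calls rest on control males 1 and 3, which had the highest Syt1 of all samples (1894 and 1723 CPM). The sex differences after nPM of Rph3a (0.25, adjusted p = 0.309) and Syt7 (0.31, adjusted p = 0.301) no longer passed without these libraries. The nPM female 1, highest in Doc2b of all samples, had a striatal marker sum of 512 CPM against at most 180 in the others, and its part in that level was not tested. The sex labels matched Xist and the Y-linked genes in all 20 samples. Total counts were 19092067 to 38663408 per sample, with a median of 29468930.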

How the data were processed

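The authors depleted ribosomal RNA, used HISAT2 for alignment to mm10 and featureCounts 1.5.0-p3 for counting on Gencode M11 genes, and they deposited whole-number counts without normalization. They also deposited gene lengths and a mean RPKM per gene, which the counts gave back to within 4.91e-11. The members and gene lists were chosen with earlier results of these data known. Genes were kept by filterByExpr (minimum count 10, minimum total 15). limma-voom (limma 3.58.1, edgeR 4.0.16, R 4.3.3) used TMM factors and the study's threshold of p under 0.005, with Benjamini-Hochberg adjustment over all 19797 genes. CPM and RPKM were computed from the counts with TMM factors over the 20 samples, and log2 CPM with an offset of 0.5 counts. Single genes were also tested by exact two-sided permutation, and correlations by 100000 permutations within groups. Overlaps and sequences came from Gencode M21 and mm10. Genes named were the members, genes at their places, the 5 most similar to Doc2b, list genes with p under 0.005 (at most 3 of a list in a comparison) and sex markers, and 1 of these is not reported here. DESeq2 1.42.0 was an alternative. On simulated data with 200 genes changed 2-fold the male fit recovered 157. Squared differences between samples of a group were 14.4 to 81.3 times counting noise over 40 pairs. Replicate numbers did not pair samples: same-number deviations correlated from -0.508 to 0.407, with 11 of 30 pairs over 0.1.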

Additional observations from a re-analysis of the deposited data

Results flagged for a closer look

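Syt2 in the nPM male 1 was far from the other nPM males, at 99.0 CPM against 23.5 to 45.3. The gap to the next sample was 0.711 of the range of the group, where Dixon's critical value for 5 samples is 0.71. On the log2 scale the gap was smaller and no value of the 7 genes passed. The 28 sets of 5 samples were examined on both scales, the CPM scale being added after the log2 values had been seen, and about 1 in 20 sets passes by chance.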

How the results depend on the processing

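Over 25 alternatives the log2 fold change of Doc2b in males lay between 0.46 and 0.60. These fits reuse the males that chose Doc2b, so the range is a description and no support for the rise. Counts of all genes at p under 0.005, another measure, also depended on the processing. They were 113 in males with DESeq2, 66 with library totals alone and 130 without a filter, against 41. In females they were 55 with DESeq2, 87 without a filter, 44 with quality weights and 40 with the TEC share as a covariate, against 18. With both sexes they were 43, 71 and 53 with DESeq2, no filter and quality weights, and 14 without the 7 choroid-plexus-rich libraries, against 28. For the interaction they were 66 with edgeR, 89 with DESeq2, 149 without a filter, 20 in protein-coding genes and 125 without the 7 libraries, against 43. For sex in controls they were 2796 in protein-coding genes, 72 with age, 2315 without the 7 libraries and 1084 with the TEC share, against 4465. After nPM they were 3752 with quality weights, 85 with age, 540 without the 7 libraries and 774 with the TEC share, against 2438. Fewer genes were tested among protein-coding genes, and the cause of these shifts was not tested in any setting. The TEC, 7-library and 20-sample TMM alternatives were chosen after seeing the data. Leaving out each sample gave 25 to 79 genes in males, 10 to 49 in females, 17 to 47 with both sexes, 27 to 81 for the interaction, 3451 to 4891 for sex in controls and 1674 to 2627 after nPM.

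With the replicate number as a block the counts were 35 in males, 22 in females, 21 with both sexes, 67 for the interaction, 4262 for sex in controls and 2370 after nPM, and no call of a tested member changed. The numbers pair no samples by their labels, and 6 of the 30 same-number pairs correlated best with their own number.

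Log2 differences of members that changed sign belonged, except for Syt7 between the sexes, to values that did not pass. For nPM in females Syt3 became -0.00458 in 1 fit of the 4 groups, -0.0053 with TMM over all 20 samples, -0.032 with the TEC share, -0.0032 with age, -0.017 with library totals and -0.00171 in protein-coding genes. Syt7 became 0.012 with the TEC share, 0.018 with age, 0.019 with quality weights and 0.046 without the 7 libraries, Rph3a 0.023 with quality weights and 0.014 without the 7 libraries, Doc2b -0.00137 with library totals, and Syt1 and Syt2 0.14 and 0.12 without the 7 libraries. Syt3 became 0.0060 in males with library totals, 0.041 and 0.023 for the interaction with the TEC share and library totals, and 0.195, 0.051 and 0.032 for sex in controls with the TEC share, library totals and protein-coding genes. It became -0.00461 for sex after nPM without a filter. With quality weights Syt2 and Syt3 became -0.034 and 0.027 in both sexes. Syt7 became -0.0080 for sex in controls and -0.14 after nPM with age. Without the 7 libraries Syt1 and Syt2 became 0.060 and -0.17 for sex after nPM. The correlation of Doc2b with Syt1 became 0.0861 without 2 samples.

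Leaving out each sample in turn gave, for nPM in females, -0.31 to 0.0097 for Doc2a, -0.061 to 0.097 for Doc2b, -0.051 to 0.020 for Rph3a, -0.15 to 0.049 for Syt1, -0.19 to 0.19 for Syt2, -0.085 to 0.099 for Syt3 and -0.057 to 0.059 for Syt7. In males it gave -0.18 to 0.35 for Syt2 and -0.074 to 0.0065 for Syt3. With both sexes it gave -0.015 to 0.070 for Rph3a, -0.10 to 0.17 for Syt2 and -0.064 to 0.024 for Syt3. For the interaction it gave -0.14 to 0.38 for Syt2 and -0.11 to 0.059 for Syt3. For sex after nPM it gave -0.016 to 0.51 for Syt2 and -0.086 to 0.095 for Syt3, and in controls -0.071 to 0.025 for Syt3. A count of 0 allows up to 3 counts, at most 0.164 CPM, far under every member.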
